A study of Brassica napus with 12 samples.

Results

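H3K4me3 in flower buds was compared with H3K4me3 in siliques of the *Brassica napus* hybrid HZ62 at every place where a peak of this histone mark was found in either tissue. The comparison used 4 of the 12 libraries of the series, 2 from flower buds and 2 from siliques, chosen by the mark and tissue in their titles. Merging the peaks of these 4 lists wherever they overlapped by 1 bp or more gave 47195 regions. The flower bud group was made of buds under 2 mm and the silique group of siliques 3 to 5 cm long. The tissue field spells the first tissue differently from the series text, which calls it flower bud, and that name is used here. Both groups are labelled wild type and come from 1 hybrid. Plants of both groups were kept in days of 16 h at 22 °C and nights of 8 h at 18 °C, and about 1 g of tissue, fixed with 1% formaldehyde, went into each library. The labels do not say how many plants were pooled or whether replicate libraries came from different plants, so the spread between replicates may be technical. The remaining libraries, which hold H3K4me3 of seedlings and H3K27me3 of flower buds, siliques and seedlings, served as separate readouts at the same regions. Seedlings were 2 weeks old, and the titles of their libraries say leaf.

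H3K4me3 is placed on nucleosomes near the start of genes that are being transcribed, in plants by enzymes related to Trithorax, and its height and width tend to follow how often a gene is used. H3K27me3 is placed by the Polycomb group and covers genes kept silent, among them many regulators of flower and seed development in *Arabidopsis*, a relative of *Brassica*. A flower bud of this size holds young sepals, petals, anthers and a pistil, and a silique is the fruit, made of the pod wall and the developing seeds. Both are mixtures of cell types, and a weaker peak cannot be told apart from the same peak in fewer cells of the tissue. No gene annotation of the files' genome build was used here, so regions are given by their position on the numbered sequences of the files, and the labelled tissues were not checked against marker genes. Sequences 1 to 10 were assigned to the A subgenome and 11 to 19 to the C subgenome from their order and extent.

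The flower bud libraries held 9707589 and 10195899 fragments and the silique libraries 14339594 and 11209471. The lists held 43634 and 43148 peaks in flower buds and 43010 and 44073 in siliques. The mean fragment sizes were 304 and 310 bp in flower buds and 332 and 248 bp in siliques, and the median peak lengths, 729 and 759 bp in flower buds and 865 and 701 bp in siliques, had the same order. Silique replicate 1 was thus the deepest library, with the longest fragments and the longest peaks. It also had the fewest regions with more than 1 peak, 27, against 679 in silique replicate 2 and 407 and 291 in flower buds. The base-pair Jaccard index, the length shared by a pair of lists over the length covered by either, was 0.870 between the flower bud lists and 0.797 between the silique lists, against 0.734 to 0.769 between a flower bud and a silique list. Across the regions of all 4 lists, log2 pileups of replicates correlated at 0.971 in flower buds and 0.970 in siliques, against 0.843 to 0.848 between the tissues (Pearson's r over 39031 regions, which are not independent replicates). The SD of the log2 difference between a pair of lists was 0.211 in flower buds and 0.225 in siliques, against 0.497 to 0.503 between the tissues.

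The tissues had most H3K4me3 regions in common, and those found in a single tissue were mostly weak. Of the 47195 regions, 39031 (82.7%) had a peak in all 4 lists. In both flower bud lists and neither silique list there were 1885 regions (3.99%), and in both silique lists and neither flower bud list there were 2005 (4.25%). A pair made of 1 flower bud and 1 silique library shared at most 133 regions that the other pair lacked, with 345 such regions over the 4 pairings. A further 1964 regions were found in 1 list and 1965 in 3 lists. With 2 libraries against 2, the smallest two-sided exact permutation p is 0.3333, so no test of presence was made.

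The height of a peak was measured as its pileup, the number of fragments that cover the summit, divided by the list's median pileup over the 39031 shared regions. That median was 102 in both flower bud lists and 135 and 101 in the silique lists, so a scaled pileup of 1 is a typical shared region. Regions found in flower buds and not in siliques had median scaled pileups of 0.382 and 0.392 in the flower bud libraries, and those found in siliques and not in flower buds 0.363 and 0.366 in the silique libraries. Judged by the lower of its 2 libraries, a scaled pileup of 1 or more was reached by 43 of the 1885 flower bud regions and 37 of the 2005 silique regions. Their merged widths had medians of 571 bp and 622 bp, against 923 bp for regions of all 4 lists. When a region was counted only if its pileup, brought to the depth of the lists without it, reached the median pileup of those lists, 65 flower bud and 29 silique regions were left, and the order of the tissues turned. Without flower bud replicate 2 the counts were 2420 and 2395, and without silique replicate 2 they were 2423 and 2401, so the excess of silique regions was not stable to the choice of libraries.

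**Figure D1:**
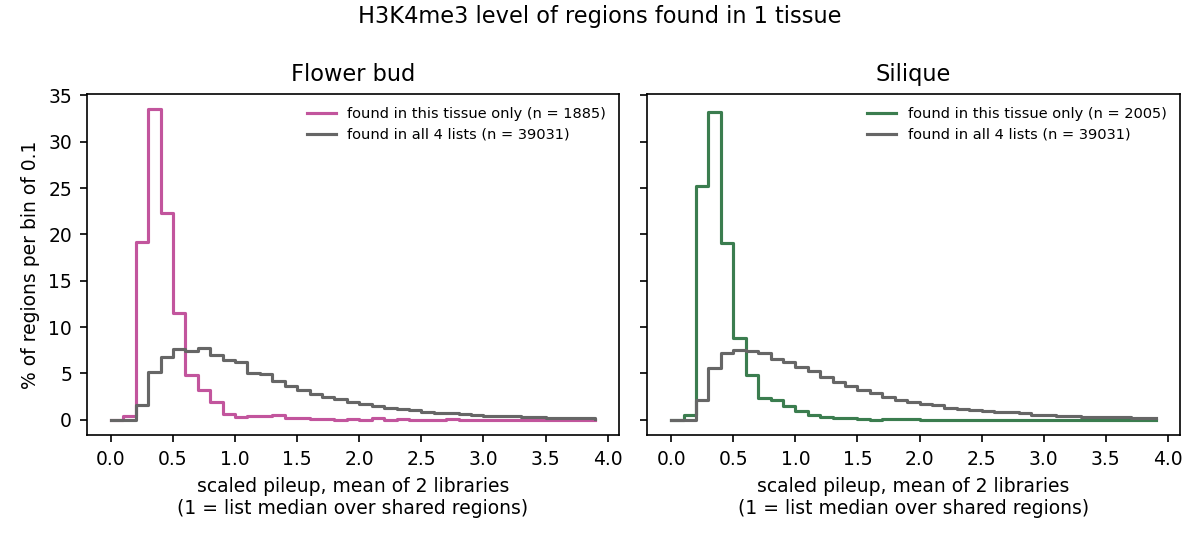
Histograms of the mean scaled pileup (x axis; 1 is the median of shared regions) as a percentage of regions per bin of 0.1 (y axis), for flower bud (left) and silique (right); coloured lines are regions found in that tissue and not in the other, grey lines regions of all 4 lists. In both tissues the coloured line peaks below 0.5, and 43 of 1885 flower bud regions and 37 of 2005 silique regions reach 1 in both libraries.

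A few regions of a single tissue were strong. The strongest flower bud region was on sequence 6 from 20515221 to 20516828, with pileups of 279 and 287 in the flower bud libraries and no peak in either silique library. The region on sequence 13 from 38926646 to 38928104 had 229 and 253 in flower buds, and that on sequence 11 from 13354972 to 13356174 had 225 and 221. Each of these pileups was above 102, the typical height of a shared region in these lists. All 3 regions had H3K4me3 in both seedling libraries and H3K27me3 in both flower bud and both silique libraries. The region on sequence 15 from 24022097 to 24023506, with pileups of 235 and 210, was the strongest of them with no H3K27me3 peak in either tissue. The other 6 of the 10 strongest had pileups of 162 to 224, and 9 of the 10 had a peak in both seedling lists.

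The strongest silique region was on sequence 6 from 25128359 to 25129798, with pileups of 260 and 193 in the silique libraries and no peak in flower buds. It was followed by the region on sequence 1 from 14033484 to 14034922, with 250 and 177 in siliques, and by the region on sequence 17 from 43707041 to 43708304, with authors' folds of 31.6 and 35.5 over control. None of these had a peak in either seedling list. The regions on sequences 6 and 17 had H3K27me3 in both libraries of both tissues, and the region on sequence 1 had none. Of the 10 strongest in siliques, 3 had a peak in both seedling lists and 7 in neither. Over the strong regions as a set, those with a scaled pileup of 1 or more in both libraries, 34 of 43 flower bud regions and 24 of 37 silique regions were in both seedling lists. The shares were 59.7% and 56.2% over all regions of a single tissue, flower bud and silique, and 90.5% over all 47195 regions. H3K27me3 was in both libraries of both tissues at 14 of the 43 and 4 of the 37, against 10.7% and 8.43% of all regions of a single tissue and 2.14% of all regions. No flower bud or silique H3K27me3 library had a peak at 23 of the 43 and 17 of the 37, against 80.1% and 73.0% of all regions of a single tissue and 94.0% of all regions.

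At shared regions the height of H3K4me3 differed widely between the tissues, in about equal numbers each way, and mostly by less than 2-fold. In a limma fit on log2 scaled pileup with Benjamini-Hochberg adjustment over all 39031 regions, 7191 regions (18.4%) were higher in flower buds and 7215 (18.5%) were lower at an adjusted p under 0.05. At 2-fold or more there were 1203 higher (3.08%) and 734 lower (1.88%), at 3-fold or more 189 and 144, and at 4-fold or more 44 and 46. The flower bud libraries lay both above or both below the silique libraries at 26428 regions (67.7%). The log2 difference, flower bud minus silique, had a median of -0.028, ran from -0.899 to 1.07 over the middle 95% of regions and had a median SE of 0.144. When pileups were divided by fragments per library instead, the median difference moved to 0.126 and the split became 10624 higher against 3364 lower, so directions hold relative to the typical shared region and not to the depth of the library. Without silique replicate 1 or silique replicate 2, no region passed, with 12708 and 12188 regions at an unadjusted limma p under 0.05. In those fits the spread rested on the flower bud lists, in which 1233 and 1238 regions had exactly equal scaled pileups. With these regions left out, the counts were 5427 higher and 4606 lower without silique replicate 1 and 5346 and 4108 without silique replicate 2.

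**Figure D2:**
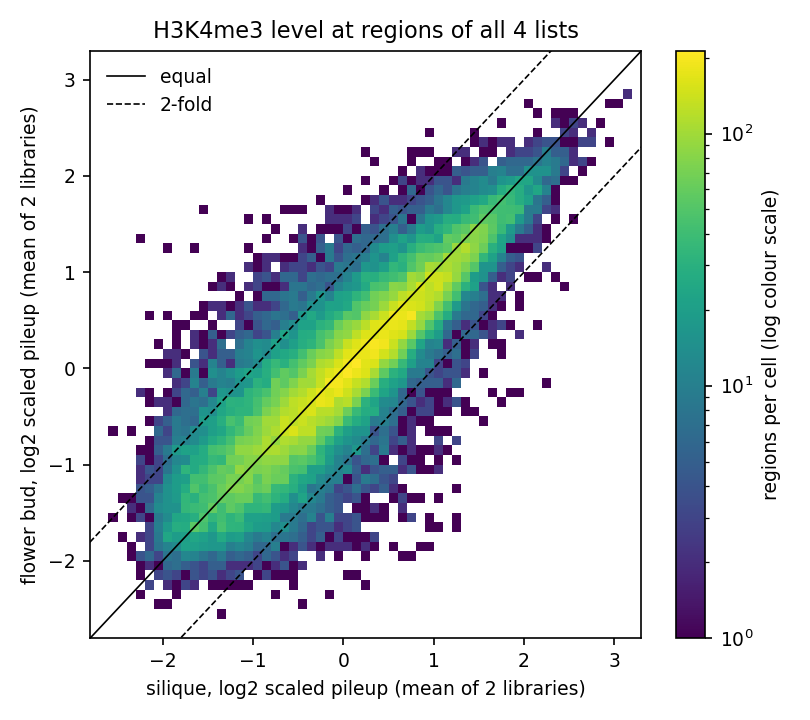
Mean log2 scaled pileup of the 2 flower bud libraries (y axis) against that of the 2 silique libraries (x axis) at the 39031 regions of all 4 lists; colour gives the number of regions per cell on a log scale, and dashed lines mark a 2-fold difference. Most regions lie between the dashed lines, and 1203 above and 734 below them passed the limma test.

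The largest differences put a high peak in one tissue beside a trace in the other. On sequence 9 from 2062442 to 2063840, pileups were 254 and 277 in flower buds against 27 and 23 in siliques, a 12.2-fold difference (log2 3.61, SE 0.16, limma adjusted p = 1.31e-20). On sequence 13 from 28079771 to 28081740 they were 249 and 245 in flower buds against 34 and 26 in siliques, 9.51-fold higher (log2 3.25, SE 0.16, limma adjusted p = 1.11e-19). On sequence 10 from 20207029 to 20208627 they were 350 and 295 in flower buds against 50 and 31 in siliques, 9.34-fold higher (log2 3.22, SE 0.14, limma adjusted p = 1.31e-20). These regions were chosen among calls without overlap between the tissues, so their separation follows from the choice. The peak lengths differed in the same direction, with 1363 and 1399 bp in flower buds against 453 and 412 bp in siliques at the region of sequence 9. The size of the p-values depended on the fit. When limma was run without a trend, the lowest adjusted p over all shared regions was 2.39e-06, against 1.31e-20 with it. The 10 regions with the largest rise were 4.99- to 12.2-fold higher in flower buds. All 10 had a peak in both seedling lists, as did 97.1% of all shared regions.

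In the other direction, the region on sequence 6 from 24474851 to 24476422 had pileups of 37 and 27 in flower buds against 325 and 252 in siliques, 7.91-fold lower (log2 -2.98, SE 0.16, limma adjusted p = 1.74e-18). The region on sequence 2 from 11183098 to 11184795 had 31 and 25 in flower buds against 289 and 183 in siliques, 7.22-fold lower (log2 -2.85, SE 0.17, limma adjusted p = 3.07e-17). The region on sequence 15 from 2671734 to 2673065 had 35 and 36 in flower buds against 322 and 236 in siliques, 6.78-fold lower (log2 -2.76, SE 0.15, limma adjusted p = 2.01e-18). At the third of these, both flower bud libraries carried H3K27me3 and neither silique library did, while the first and second had no H3K27me3 peak. The 10 regions with the largest fall were 5.63- to 7.91-fold lower in flower buds, of which 5 had a peak in both seedling lists and 4 in neither, against 88.3% in both among all regions lower by 2-fold or more.

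**Figure D3:**
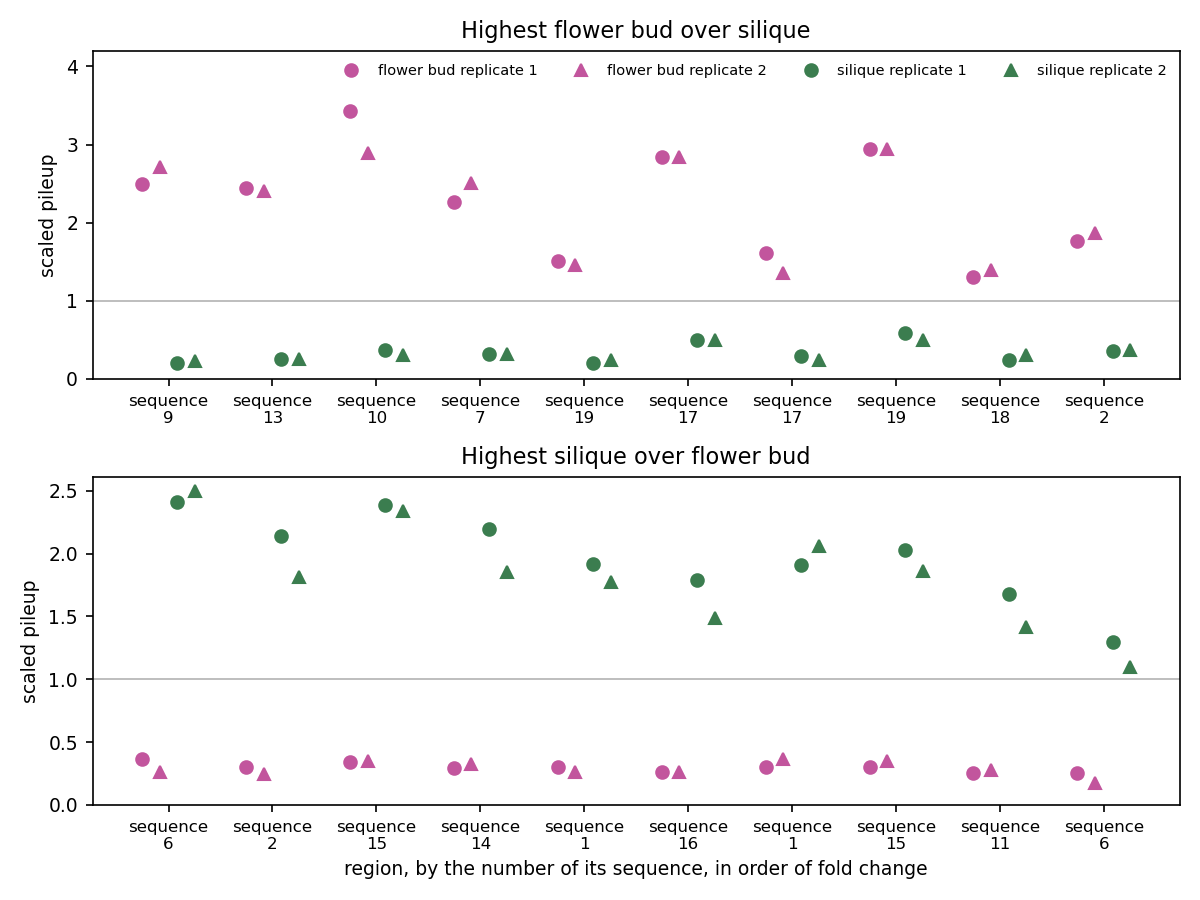
Scaled pileup (y axis, linear; 1 is the median of shared regions) in each library at the 10 shared regions with the largest rise in flower buds (top) and the 10 with the largest fall (bottom), placed in order of fold change along the x axis and labelled by sequence; circles are replicate 1 and triangles replicate 2. In every region shown the 2 libraries of a tissue lie closer to each other than to the other tissue, and the lower tissue is below the line at 1. The regions were chosen for large folds without overlap between the tissues, so the gap follows from the choice.

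Regions that fell in flower buds tended to have a wide merged width, with long peaks in siliques and not in flower buds. When the shared regions were split by merged width into 4 classes of about equal number, the share that was lower by 2-fold or more was 0.438% in the narrowest class (350 to 750 bp), then 0.895% and 1.69%, and 4.50% in the widest (1173 to 3898 bp). The share that was higher by 2-fold or more was 2.33% in the narrowest class, 3.12% and 3.03% in the next classes and 3.86% in the widest. Split instead by mean scaled pileup, the share higher by 2-fold or more was 3.66% in the lowest class and 2.01% in the highest, and the share lower was 2.49% and 0.974%. Without the fold limit, lower calls made up 13.7% of the lowest class and 25.2% of the highest, and higher calls 18.2% and 18.7%. Merged width is the union over 4 lists, so a peak that is long in either tissue counts as wide, and how far this accounts for the gradient was not tested. At regions lower by 2-fold or more, median lengths were 662.5 and 683 bp in flower buds and 1304 and 1098 bp in siliques. Over all shared regions they were 755 and 783 bp in flower buds and 890 and 731 bp in siliques.

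Peak length differed as well, mostly in the same direction as height. In base pairs, 883 shared regions (2.26%) were wider and 1381 (3.54%) narrower in flower buds (limma on log2 length, adjusted p under 0.05 over 39031 regions). Median lengths over these regions were 755 and 783 bp in flower buds and 890 and 731 bp in siliques, and the median log2 difference was -0.068. With each length divided by the median of its list, which removes that offset, 2508 regions (6.43%) were wider and 2163 (5.54%) narrower. Among the calls in base pairs, 725 were wider and higher and 1070 narrower and lower, against 15 narrower and higher and 5 wider and lower. With scaled lengths these numbers were 2081, 1670, 23 and 9. Across shared regions the log2 differences in pileup and in scaled length correlated with Pearson's r = 0.753 and Spearman's rho = 0.739, as a description, since both come from the same peaks and a higher peak crosses the calling threshold over a longer stretch. The calls in base pairs depended on which libraries were used. They were 63 and 155 without flower bud replicate 1, 52 and 184 without flower bud replicate 2, 2167 and 810 without silique replicate 1, and 848 and 3965 without silique replicate 2. With scaled lengths the counts were 1913 to 2506 wider and 1671 to 2086 narrower over the same omissions.

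The region with the largest gain in length lay on sequence 5 from 7729092 to 7730758, with lengths of 1663 and 1665 bp in flower buds against 436 and 278 bp in siliques (log2 2.26, SE 0.20, limma adjusted p = 1.14e-26). Its pileups differed less, with 54 and 63 in flower buds against 40 and 27 in siliques. On sequence 14 from 42830542 to 42832599, lengths were 1993 and 1956 bp in flower buds against 554 and 522 bp in siliques (log2 1.88, SE 0.19, limma adjusted p = 3.04e-20). Its scaled pileups, 0.559 and 0.706 in flower buds against 0.481 and 0.465 in siliques, did not overlap but did not pass the test (limma adjusted p = 0.0760). In the opposite direction, the region on sequence 12 from 59715767 to 59718394 had lengths of 337 and 371 bp in flower buds against 2628 and 1954 bp in siliques (log2 -2.68, SE 0.19, limma adjusted p = 1.46e-39). There H3K27me3 was present in both libraries of both tissues. With scaled lengths the limma adjusted p was weaker, 5.06e-05 for the region on sequence 5, 4.29e-05 on sequence 14 and 1.59e-05 on sequence 12. On sequence 6 from 25064096 to 25066463, lengths were 348 and 336 bp in flower buds against 2368 and 1750 bp in siliques, and scaled pileups were 0.255 and 0.176 in flower buds against 1.30 and 1.10 in siliques, so this region was among the largest differences in both measures.

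**Figure D4:**
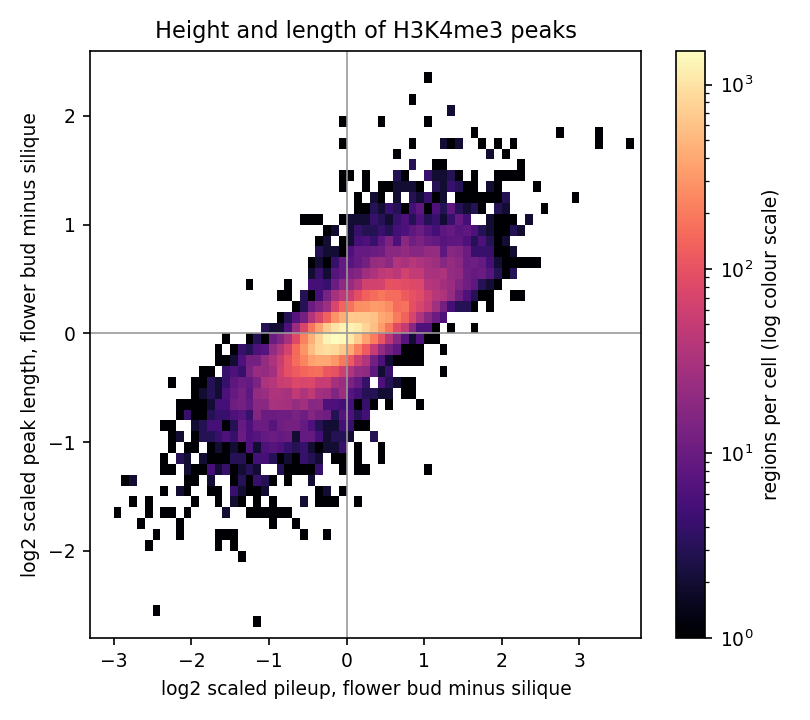
Log2 difference in scaled peak length (y axis) against log2 difference in scaled pileup (x axis), flower bud minus silique, at the 39031 shared regions, with colour for the number of regions per cell on a log scale. The cloud runs along the diagonal, with 2081 regions called wider and higher in flower buds and 1670 narrower and lower, against 23 and 9 in the other corners.

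Extra length was laid out differently in the 2 directions. The regions taken were those with 1 peak in each list and a called difference in scaled length of 1.5-fold or more. Edges were averaged within a tissue. The median distance by which flower bud reached beyond silique over 38292 regions, -18 bp on the left and -17.5 bp on the right, was then subtracted. At the 1054 that were wider in flower buds, the extra length so corrected had medians of 239 bp on its larger side and 118 bp on its smaller side. In 20.4% of them at least 80% of the extra length lay on a single side. At the 891 that were narrower in flower buds the medians were 377 and 89 bp, and 49.6% had the extra silique length on a single side. For each pair of 1 flower bud and 1 silique library these shares were 20.7% to 31.7% for the wider and 49.2% to 54.9% for the narrower regions, so they did not overlap. The difference in shares is a description without a test, and the larger side was on the left and on the right about equally often, in 545 and 506 of the wider and 452 and 439 of the narrower regions.

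The position of the summit rarely moved. At 38292 regions with 1 peak in each list, the median distance between summits was 31 bp between the flower bud libraries and 33 bp between the silique libraries, against 33 to 35 bp between tissues. At 148 regions (0.387%), summits were 300 bp or more apart between the tissues and within 100 bp inside each tissue. The largest such shift, 1620 bp, was on sequence 11 from 15321449 to 15324720. Its summits lay at 15322204 and 15322112 in flower buds against 15323824 and 15323825 in siliques, with pileups of 176 and 166 in flower buds against 566 and 356 in siliques (log2 -1.20, limma adjusted p = 6.8e-13). The next largest, 1161 bp, was on sequence 11 from 20275574 to 20277622, where pileups were 77 and 78 in flower buds and 80 and 66 in siliques and did not pass the test (limma adjusted p = 0.172). Both regions had H3K4me3 in both seedling libraries. Regions with 2 or more peaks in both libraries of a tissue and 1 peak in both of the other were few, 22 in flower buds and 5 in siliques.

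Seedling H3K4me3, which entered neither the merging nor the calls, was present at most of these regions. Of all 47195 regions, 90.5% had a peak in both seedling lists and 6.59% in neither. Of regions found in flower buds and not in siliques, 1125 (59.7%) were in both seedling lists and 592 (31.4%) in neither. Of those found in siliques and not in flower buds, 1127 (56.2%) were in both and 687 (34.3%) in neither. The 4274 regions with other patterns, neither of a single tissue nor in all 4 lists, had 60.5% in both, so the lower share was not particular to regions of a single tissue. Seedling fragments were shorter, 236 and 246 bp, and the seedling libraries carry lower library numbers than the others, so a difference between seedling and the other tissues cannot be told apart from one between library series.

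Which tissue the seedling level stood nearer to depended on the size of the difference. Over all called regions in both seedling lists, it was nearer to flower bud in 55.1% of the 7003 that were higher in flower buds and in 66.3% of the 6966 that were lower, against 57.5% of all 37894 shared regions. At 2-fold or more the order was the reverse. Among regions 2-fold or more higher in flower buds, 1155 were in both seedling lists, and the seedling level was nearer to flower bud than to silique on the log2 scale in 73.0%. Their median log2 scaled pileups were 0.287 in flower buds and -1.02 in siliques, and 0.046 in seedling. Among those 2-fold or more lower in flower buds, 648 were in both seedling lists, and the seedling level was nearer to flower bud in 43.8% and nearer to silique in 56.2%. Their medians were -1.10 in flower buds and 0.260 in siliques, and -0.210 in seedling. Regions without a peak in both seedling lists were left out of these shares. Among those lower by 2-fold or more, 29 were in 1 seedling list and 57 in neither, against 18 and 30 among those higher. How the shares would stand with them was not tested, so the 56.2% holds only for regions in both seedling lists.

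H3K27me3 was more frequent at regions of a single tissue than at shared ones. An H3K27me3 peak in at least 1 of the 4 flower bud and silique H3K27me3 libraries was found at 19.9% of regions in flower buds and not in siliques and at 26.98% of those in siliques and not in flower buds, against 3.28% of shared regions and 5.98% of all. Regions with other patterns of presence had an H3K27me3 peak less often than those of a single tissue and more often than shared ones, with 85.4% free of it. The H3K27me3 libraries differed in depth, with 11513204 and 10929797 fragments in flower buds and 7441109 and 2654588 in siliques, and their peak numbers, 25956 and 25589 in flower buds and 23978 and 13579 in siliques, followed it. The presence of H3K27me3 was therefore also counted after cutting the lists to the same number of peaks, and its level was compared where all 4 H3K27me3 lists had a peak.

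Where more H3K4me3 was found in siliques, H3K27me3 of a single tissue was called in flower bud alone, the direction that most such calls had over all regions. Where more was found in flower buds, the order turned when the H3K27me3 lists were cut to the same number of peaks. Of 9220 regions with H3K4me3 in siliques and not in flower buds or called lower in flower buds, 269 (2.92%) had H3K27me3 in both flower bud and neither silique library, and 0 had the reverse. Of 9076 regions with H3K4me3 in flower buds and not in siliques or called higher in flower buds, 68 (0.749%) had H3K27me3 in flower bud alone and 25 (0.275%) in silique alone. Over all regions these patterns had counts of 553 (1.17%) and 34 (0.072%). The 25 regions are thus most of the 34 with H3K27me3 in silique alone. With the same number of H3K27me3 peaks, 13579, taken from each list, the counts at regions with more H3K4me3 in flower buds were 22 for flower bud and 52 for silique, and at regions with more in siliques 157 and 2. The cut lists were not counted over all regions, so whether the turned order is particular to these classes was not tested. Without silique H3K27me3 replicate 1, the count of 269 became 560 and that of 68 became 197. Without silique H3K27me3 replicate 2, the count of 25 became 99 and that of 0 became 8.

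In both directions the median level of H3K27me3 was lower in the tissue with more H3K4me3. Over the 10854 H3K27me3 regions of all 4 H3K27me3 lists, a limma fit found 373 (3.44%) higher and 538 (4.96%) lower in flower buds. Of all merged H3K4me3 regions, 1164 overlapped such a region, with H3K27me3 called higher in flower buds at 116 (9.97%) and lower at 118 (10.1%). The median log2 difference of H3K27me3 over these 1164 was -0.011. At H3K4me3 regions in flower buds and not in siliques that overlapped such a region (n = 217), the median log2 difference of H3K27me3, flower bud minus silique, was -0.354, with 4 called higher and 62 lower. At regions with higher H3K4me3 in flower buds (n = 139) it was -0.182, with 3 higher and 22 lower. Where H3K4me3 was not called different (n = 225) it was -0.003, with 17 higher and 8 lower. At regions with lower H3K4me3 in flower buds (n = 117) it was 0.210, with 20 higher and 1 lower, and at the regions found in siliques and not in flower buds it was 0.297, with 53 higher and 2 lower. Medians were also taken for each of the 4 pairs of 1 flower bud and 1 silique H3K27me3 library. They ran from -0.385 to -0.319 at regions found in flower buds and not in siliques. At regions found in siliques and not in flower buds they ran from 0.276 to 0.347. These are descriptions by class, without a test of the class.

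**Figure D5:**
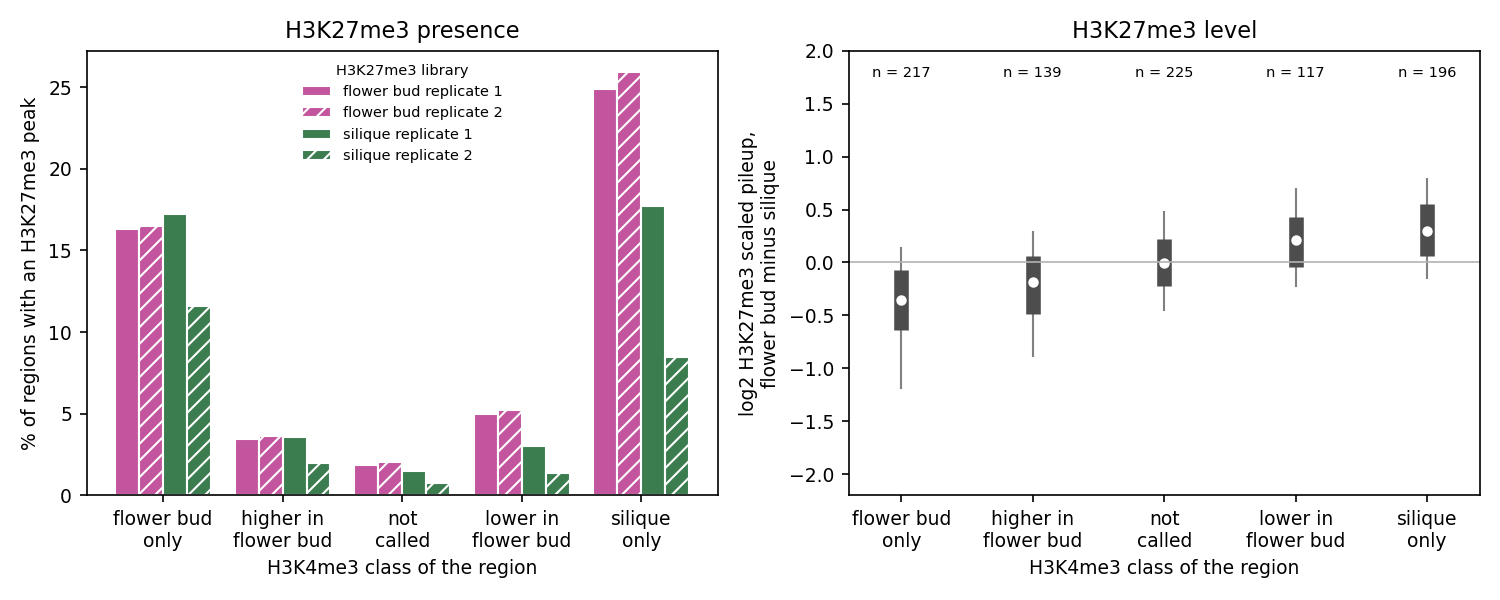
Left, percentage of H3K4me3 regions with an H3K27me3 peak (y axis) in each H3K27me3 library, by H3K4me3 class (x axis). Right, log2 difference of H3K27me3 scaled pileup, flower bud minus silique, at regions over an H3K27me3 region of all 4 lists, with white points for medians, bars for the middle 50% and lines for the middle 80% of regions; the median goes up in steps from -0.354 at regions found in flower buds and not in siliques to 0.297 at regions found in siliques and not in flower buds.

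Single regions were also chosen for more H3K4me3 in a tissue and H3K27me3 called only in the other, so this contrast follows from the choice. The level of H3K27me3 was not compared at them, because a list holds no value where no peak was called. On sequence 2 from 4225635 to 4227309, H3K4me3 pileups were 89 and 98 in flower buds against 635 and 454 in siliques, 5.02-fold lower (log2 -2.33, SE 0.10, limma adjusted p = 1.31e-20). H3K27me3 was called there in both flower bud libraries, with the authors' fold enrichment of 17.7 and 18.2 over control, and in neither silique library. Both seedling libraries had H3K4me3 there as well as H3K27me3, with H3K4me3 pileups of 53 and 62. On sequence 7 from 26391100 to 26393670, H3K4me3 pileups were 125 and 157 in flower buds against 680 and 409 in siliques, 3.29-fold lower (log2 -1.72, SE 0.11, limma adjusted p = 3.01e-16), and H3K27me3 was called in both flower bud libraries with folds of 6.71 and 6.50. The highest H3K4me3 of this kind, on sequence 5 from 268953 to 271157, had pileups of 534 and 532 in flower buds against 908 and 679 in siliques, which was 1.29-fold lower.

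In the reverse pattern, the region on sequence 19 from 2449637 to 2451018 had H3K4me3 pileups of 300 and 300 in flower buds against 80 and 50 in siliques, 5.43-fold higher (log2 2.44, SE 0.13, limma adjusted p = 2.01e-18). H3K27me3 was called there in both silique libraries, with folds of 17.7 and 10.2, and in neither flower bud library. On sequence 17 from 43748400 to 43750128, H3K4me3 pileups were 408 and 436 in flower buds against 229 and 191 in siliques, 2.31-fold higher (log2 1.21, SE 0.09, limma adjusted p = 1.51e-13), and H3K27me3 folds in siliques were 10.7 and 6.58. At both places H3K4me3 was also present in both seedling libraries, with pileups of 194 and 270 on sequence 19 and 213 and 267 on sequence 17, and neither seedling library had H3K27me3 there.

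Regions that differed were spread over the genome. The C subgenome held 55.8% of regions in flower buds and not in siliques and 51.2% of those in siliques and not in flower buds, against 53.3% of all. Over the 19 sequences the median log2 difference in pileup was between -0.058 and -0.005, except on sequence 12, where it was 0.059 and 4.00% of shared regions were higher in flower buds by 2-fold or more against 1.53% lower. The median distance to the nearest other region was 4668 bp for regions in flower buds and not in siliques and 4798 bp for the reverse, against 3938 bp for all. Neighbours shared a direction a little more often than other regions. The next shared region was called higher after 22.7% of higher regions, against 18.4% after any region, and called lower after 20.4% of lower regions, against 18.5%. The correlation of log2 differences between neighbours was 0.058 for gaps under 1 kb, 0.093 from 1 to 5 kb, 0.063 from 5 to 20 kb and 0.046 beyond, as a description over pairs of regions.

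Runs of 3 or more neighbouring shared regions called in the same direction numbered 312 higher and 238 lower in flower buds, and held 14.3% of the higher and 10.8% of the lower calls. The longest run of higher regions had 7 members on sequence 7 from 28500435 to 28568212, with a median 1.70-fold higher pileup and log2 differences from 0.48 to 1.07. All 7 had H3K4me3 in both seedling lists and none had H3K27me3 in either tissue, which also held for 97.1% and 96.7% of all shared regions. The longest run of lower regions also had 7 members, on sequence 5 from 22703378 to 22745218, with a median log2 difference of -0.41 and a range from -1.05 to -0.30. Each of these runs had 1 member that differed by 2-fold or more.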

How the data were processed

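ChIP-seq peak lists of 12 libraries were used as deposited, 1 list per library and none from pooled replicates. The authors worked with MACS2, GATK, SAMtools and BWA, per the submitters' processing notes. The file headers name MACS 2.2.7.1, paired-end narrow peaks, a q cutoff of 1e-05, 1 fragment per duplicate position and 1 merged control of 12042843 fragments for every list. The genome build is not given in the sources used here. The deposited pileup is a signal, whole fragments over the summit and not scaled for depth, per the file headers. The deposited fold enrichment is the authors' ratio of pileup to local control for each peak and only describes it. The deposited −log10 p-value and −log10 q-value columns served to rank and filter peaks. Peak length in bp was taken from the deposited lists.

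Regions were scored as stated with each result, on all peaks, using the highest pileup and summed length where a list had several peaks. Moderated tests used limma 3.58.1 (lmFit, eBayes with trend) in R 4.3.3, 2 flower bud against 2 silique libraries, with no covariate; 39031 regions were tested because a list holds no value where no peak was called. Python 3.11.15, numpy 2.4.6 and pandas 2.3.3 did the rest. The tests were tried on simulated data first. Depth sets which weak peaks are called: the absence of a peak means none passed the cutoff at that depth. Comparisons, lists and naming rules were chosen with earlier results of these data known. Named regions were, each way, the 10 strongest of a single tissue, the 10 largest pileup and 6 largest length differences among calls without overlap, the 5 longest runs, and the 5 strongest with H3K27me3 in the other tissue. The edge, summit and H3K27me3 level comparisons and the omission of equal values were chosen after seeing the data. Sequences were assigned to subgenomes from their extents against the Da-Ae assembly (Pearson's r = 0.994, Spearman's rho = 0.991, 19 sequences), of which no coordinate was used.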

Additional observations from a re-analysis of the deposited data

How the results depend on the processing

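No paired analysis was possible because the labels give no replicate numbers that flower bud and silique libraries share. Each fit without a replicate leaves 1 library in a tissue, which is then assumed to vary like the other tissue. Presence counts (flower bud and silique) were 65 and 29 under the pileup requirement, and 2313 to 2423 and 2395 to 2699 with a library left out, since a tissue is then judged on 1 library. A −log10 q of 10 or more, an equal number of peaks per list and 50% coverage left them within 1.5 times.

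Pileup calls (higher and lower in flower buds) were 10624 and 3364 when divided by fragments per library and 3608 and 4329 among regions at or above the median level. With a library left out they ran from 0 to 5459 and from 0 to 5612. With equal flower bud values left out as well, the lower calls were 4606 without silique replicate 1 and 4108 without silique replicate 2. At 2-fold or more they were 1895 and 466 when divided by fragments per library, 471 and 240 at or above the median level, 51 and 36 with a pseudocount of 1, and from 0 to 1264 and from 0 to 900 with a library left out, or up to 1374 higher with equal flower bud values left out as well. A pseudocount of 1 is the size of the median itself, so it shrinks folds by construction. Quantile normalization, fold enrichment in place of pileup, single peaks per list, a pseudocount of 0.1, a −log10 q of 10 or more and limma without a trend stayed within 1.5 times.

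Length calls (wider and narrower) were 2508 and 2163 with scaled lengths, 2633 and 2220 with scaled lengths at regions with 1 peak in each list, and 874 and 2063 with the fragment size subtracted. With a library left out they ran from 52 to 2167 and from 155 to 3965. With scaled lengths and a library left out, wider calls were 1913 without flower bud replicate 1, 2026 without flower bud replicate 2, 2506 without silique replicate 1 and 2379 without silique replicate 2, and narrower calls ran from 1671 to 2086. With scaled lengths, wider and higher, narrower and higher, wider and lower, and narrower and lower had 2081, 23, 9 and 1670 regions, and at regions with 1 peak in each list 2180 were wider and higher, 9 wider and lower and 1745 narrower and lower.

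For H3K27me3 in flower bud alone and in silique alone, regions with more H3K4me3 in flower buds had 22 and 52 with equal peak numbers, and 69 to 197 and 26 to 99 with an H3K27me3 library left out. Those with more H3K4me3 in siliques had 157 and 2, and 270 to 560 and 0 to 8. The count of 25 became 14 when H3K27me3 had to cover 50% of the region. The cause of these changes was not tested.

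Of the regions named, all 20 found in a single tissue kept their class in 160 of 160 values under 8 alternatives. These 20 were chosen as the strongest, and leaving out a library or cutting the lists adds no peak in the other tissue. Most of these values thus follow from the choice and are no measure of stability. The 29 named for pileup kept their call in 347 of 415 values and lost it in 68, of which 29 came from each fit without a silique library. The 12 named for length kept it in 173 values and lost it in 1. No named region changed direction. A region under the peak cutoff is not listed, which limits what presence can show.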

Other observations

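A few shared regions changed height and length in opposite directions. With scaled lengths, 23 were higher and narrower in flower buds, with a median log2 difference of 0.54 in pileup and -0.49 in length, and 9 were lower and wider, with medians of -0.43 and 0.45.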
